A study of Mus musculus with 4 samples.

Results

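The comparison described here sets 2 Th17 cultures side by side: control T cells given IL-2 and control T cells in which IL-2 was neutralised. It rests on 2 of the 4 arrays of the series, and on the 12439 of 18193 genes that a probe set names alone whose level exceeded 6.20, the median of all values, on at least 1 of the 4 arrays. Every difference is the level on the array with IL-2 added minus the level on the array with IL-2 neutralised, on the log2 scale, so that 1 is a 2-fold difference and a positive value is a higher level with IL-2.

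Naive CD4+CD44-CD62L+ T cells of C57BL/6J mice with the OT2 T cell receptor transgene were sorted from lymph nodes and spleen and kept for 72 h on plate-bound anti-CD3 with anti-CD28, IL-6 (20 ng/ml), TGF-β (2 ng/ml) and anti-IL-4. The first control culture came from stat3 fl/fl OT2 mice (STAT3 wild type) and received anti-IL-2 at 10 µg/ml. The second came from stat5 fl/fl OT2 mice (STAT5 wild type) and received IL-2 at 100 IU/ml. Neither carries a Cre transgene. The remaining arrays hold cells of the same 2 lines with CD4-Cre, which deletes the floxed gene in T cells: STAT3-deficient cells with IL-2 neutralised and STAT5-deficient cells with IL-2 added. The IL-2 condition and the floxed line change together between the controls, so their parts in any difference cannot be told apart. There is 1 array per group, the sources used here do not give the number of animals behind each, no difference has a replicate check and no p-value is given.

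IL-2 is the growth factor that activated T cells make for themselves. It binds a receptor of 3 chains, of which the α chain (Il2ra) is itself induced by the cytokine, and signals through JAK1 and JAK3 to STAT5A and STAT5B, with further branches to the PI3K and MAP kinase pathways. In developing Th17 cells IL-2 and STAT5 are known to restrain IL-17 production and to favour regulatory T cell genes such as Foxp3, whereas IL-6 acts through STAT3 to drive the Th17 programme. This is why Th17 cultures are often set up with an antibody against IL-2. IL-2 is also known to sustain nutrient uptake, growth and division of T cells.

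Of the 12439 genes, 292 (2.35%) were at least 2-fold higher with IL-2 added and 367 (2.95%) at least 2-fold lower, 5.30% in all. These shares are the background against which the counts of gene groups below are read. The median difference over all genes was 0.06, and 50 genes were past 4-fold upwards and 43 downwards. Of the lower genes, 191 were under 6.20 on the IL-2-added array, a level treated as not distinguishable from background. The same holds on the IL-2-neutralised array for 70 of the higher genes. The sizes of those differences are uncertain. These counts can include genes under 6.20 on both controls, such as Klrk1 (4.05 and 5.88), kept through a deficient array. With both levels above background there were 222 higher and 176 lower genes. The split also depends on scaling: lower genes made up 55.7% of the calls with the values as deposited, 50.3% after intensity-dependent centring and 27.8% after subtracting each array's median, a step that moves the median of all genes from 0.06 to 0.25. At the 2-fold limit, Dipk2a (1.0023) lay just inside and Mrps28 (0.9999) just outside on the higher side, Spata9 (-1.0009) just inside and Gm14137 (-0.9989) just outside on the lower side, so membership at the edge carries no weight.

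**Figure D1:**
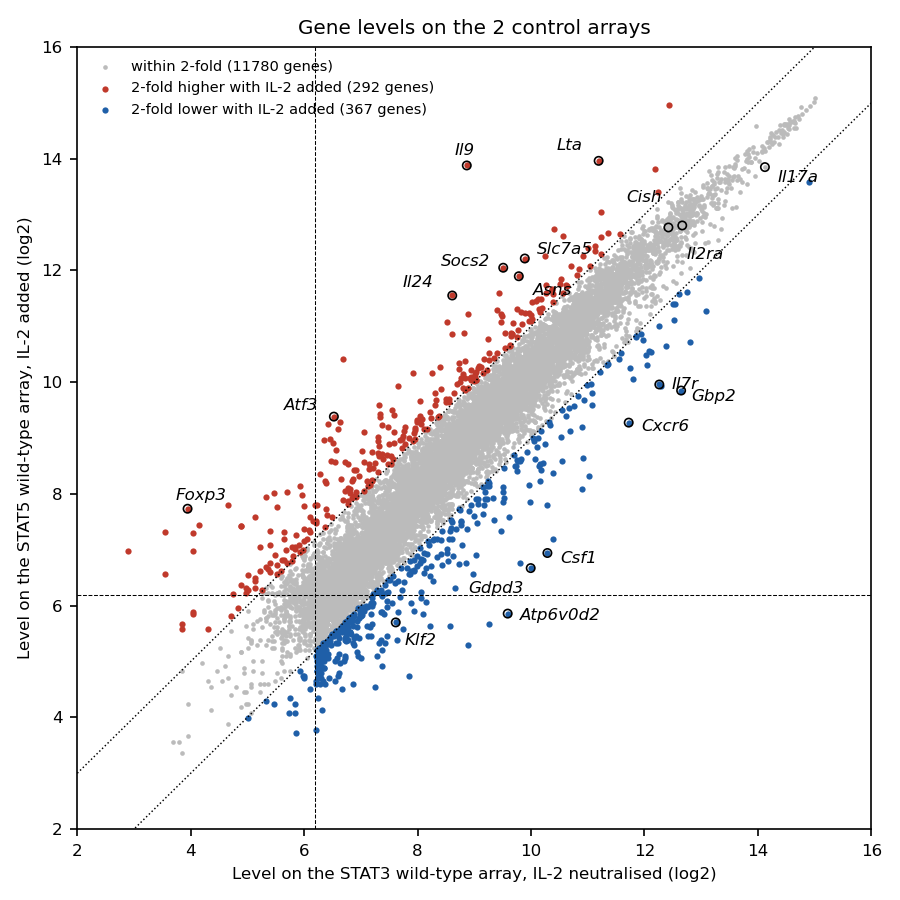
Levels of the 12439 genes on the 2 control arrays (log2), with IL-2 neutralised on the horizontal and IL-2 added on the vertical axis. Dotted lines mark 2-fold, dashed lines the background level of 6.20; Il9, Lta and Foxp3 lie far above the 2-fold band, Csf1 and Atp6v0d2 far below it, and Il17a, Il2ra and Cish inside it.

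Defining T cell genes were far above background on both control arrays. Cd4 stood at 11.46 with IL-2 neutralised and 11.00 with IL-2 added, Cd3e at 12.15 and 11.84, and 0 of the 12 measured CD4 T cell identity genes passed 2-fold. Markers of other cells were sparse: 4 of 6 B cell, 7 of 12 myeloid and dendritic, 4 of 4 NK and 3 of 3 erythroid markers were under background on all 4 arrays, including Ms4a1 and Cd79a of B cells and Cd14 and Itgam of myeloid cells. Both CD8 genes and the 3 gamma delta T cell markers had levels above background on some array and were lower with IL-2 added, within 2-fold (Cd8a -0.67, Cd8b1 -0.36), with a summed linear level of 385 for the CD8 pair with IL-2 neutralised and 282 with IL-2 added; the part of such cells in the results was not tested. Xist was at 13.42 and 13.25 and the 3 measured Y-linked genes were under background, so both control samples carry the female pattern.

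The measured receptor and signalling genes of IL-2 were within 2-fold between the controls. The third receptor chain, the common γ chain (Il2rg), was not analysed, because no probe set names it alone. Of 8 measured genes of the list, which also holds Il2 and Stat3, 0 passed 2-fold. Their median difference was 0.04, turning to -0.21 after intensity-dependent centring. Il2ra, the inducible α chain, stood at 12.67 with IL-2 neutralised and 12.81 with IL-2 added, a difference of 0.14. Il2rb, the signalling β chain, was at 12.19 and 12.29 (0.10). Stat5a was at 10.73 and 10.92, Stat5b at 11.39 and 11.33 and Stat3 at 12.87 and 12.33, so both targeted genes were present in both controls. Jak3, the kinase bound to the common γ chain, had the largest difference of the chain at -0.57. Il2 itself, at 6.66 and 6.88, lay just above background on both.

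Most genes known to be induced by STAT5 were within 2-fold. Of the feedback inhibitors on the list, Cish and Socs1 were within it, whereas Socs2 was higher by 2.54. A list of 31 measured targets that IL-2 is known to induce by way of STAT5 had 5 members higher and 2 lower, with a median of 0.13 against 0.06 for all genes. Within it, Cish, the classical inhibitor induced by STAT5, stood at 12.42 and 12.77 (0.35), Socs1 at 9.80 and 9.63 (-0.18) and Pim1, a survival kinase, at 10.93 and 11.38 (0.45). Myc, the growth regulator, was at 11.81 and 12.03 (0.23), and Bcl2, the anti-apoptotic gene, at 9.88 and 10.82 (0.94). The 5 probe sets of Bcl2 gave 0.49 to 1.43, and it was past 2-fold after median centring (1.13), which took the higher members of the list from 5 to 7. All 5 genes were well above background in the culture with anti-IL-2 too, and 0 of them passed 2-fold as deposited. Pim1, Myc and Bcl2 were chosen after their values were seen, so this count describes the examples only. The list members that did pass 2-fold were Foxp3, Il24, Lta, Socs2 and Gzmb, higher, and Tnfrsf8 and Ecm1, lower.

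Of these, Il24, Lta, Foxp3 and Socs2 had their highest level on the array with IL-2 added and intact STAT5, as did Il9 from another list. In the following, 4 levels are given in the order STAT3 wild type, STAT3-deficient (both with IL-2 neutralised), STAT5 wild type, STAT5-deficient (both with IL-2 added). Il9, a growth factor for mast cells that stands on the Th2 and Th9 list, had the largest difference of all genes: 8.87, 8.89, 13.88 and 10.61, a difference of 5.01 or 32.3-fold between the controls. Il24, an IL-10 family cytokine, was at 8.61, 5.30, 11.55 and 6.63 (2.94), and Lta, which encodes lymphotoxin α, at 11.19, 12.38, 13.96 and 11.44 (2.77). For each of the 3 the STAT5 wild-type array stood above the other 3 arrays by at least 2-fold. The STAT5-deficient array with the same IL-2 lay nearer the IL-2-neutralised arrays. Genes called higher were picked for a high level on the STAT5 wild-type array, so standing highest there is partly built in, here and below. A part of STAT5 in this order was not tested.

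Foxp3, the regulator that defines regulatory T cells, was at 3.94, 3.32, 7.73 and 4.36. Its difference of 3.79 has 1 side far under background, so only the presence of signal on the STAT5 wild-type array and its absence above background on the others is clear, not the fold. In bulk RNA, fewer cells of a type and less RNA per cell cannot be told apart, here and below. Socs2, a feedback inhibitor of STAT5 signalling, was at 9.51, 11.37, 12.05 and 8.93 (2.54); its 5 probe sets above background gave differences from 0.13 to 2.54. Gzmb, a granule protease of cytotoxic cells, was at 5.52, 8.25, 7.76 and 9.29 (2.24), and so was not highest with intact STAT5. Tnfrsf8 (CD30) was at 7.43, 6.03, 5.32 and 6.91 (-2.10), and Ecm1, an extracellular matrix protein, at 10.69, 7.91, 9.12 and 7.91 (-1.57).

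**Figure D2:**
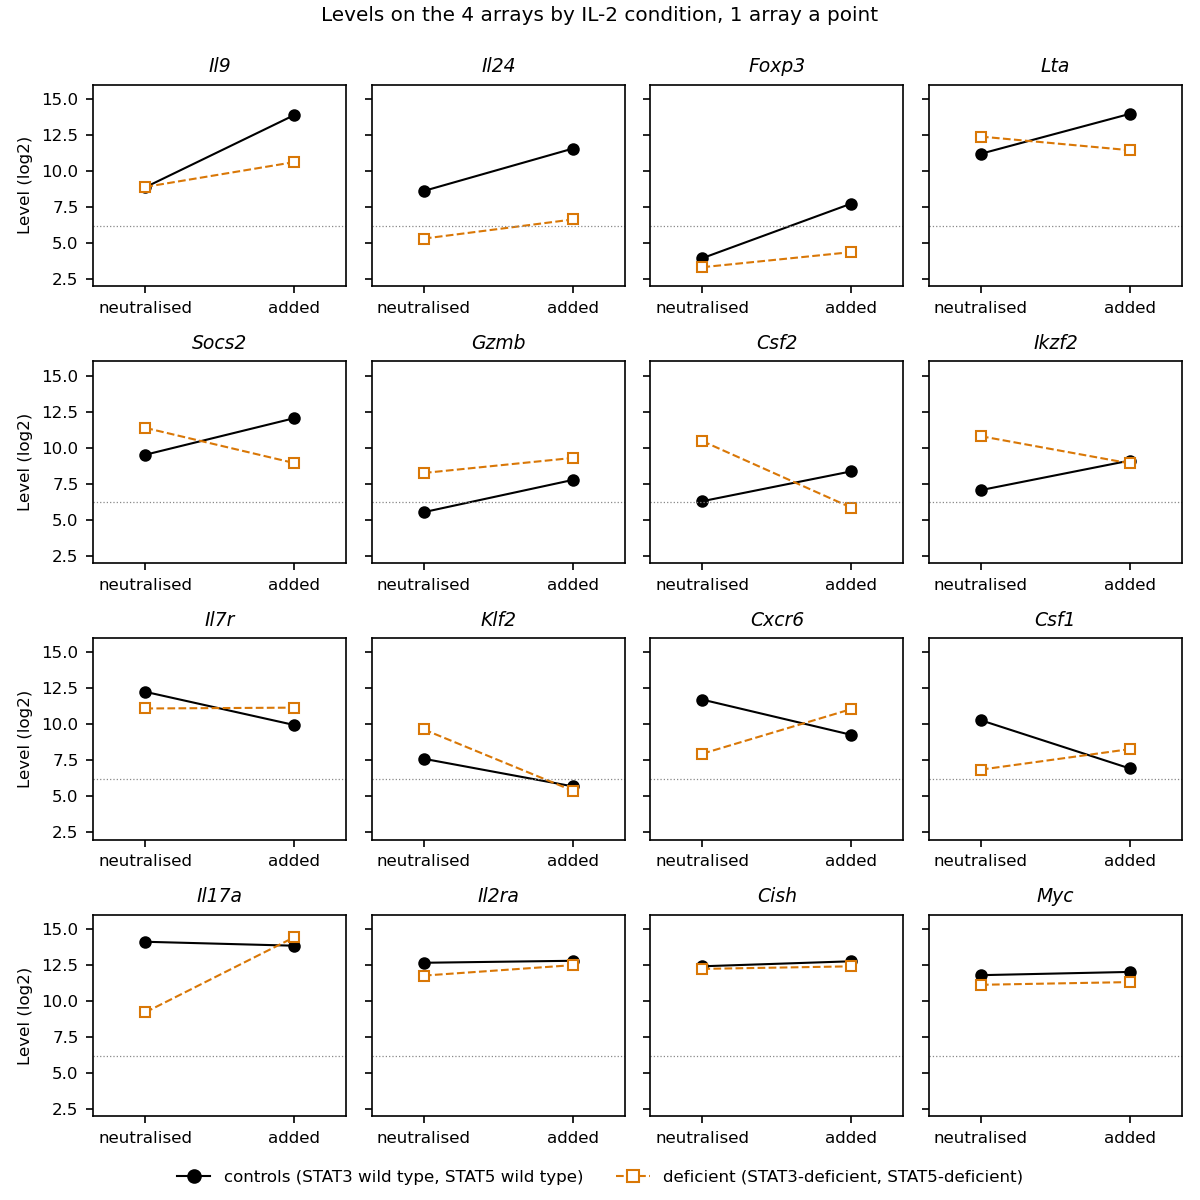
Levels (log2) of 16 genes on the 4 arrays, with IL-2 neutralised at the left and IL-2 added at the right of each panel; filled circles are the controls, open squares the deficient cells, 1 array a point, and the dotted line is the background level of 6.20. Il9 went from 8.87 to 13.88 between the controls, Il7r from 12.26 to 9.96, and Il17a (14.12 and 13.85), Il2ra, Cish and Myc lay level.

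Genes known to be repressed by IL-2 and STAT5 were lower or within 2-fold. Of 10 measured, 3 were lower and 0 higher; the median was -0.26. Il7r, the IL-7 receptor that IL-2 is known to turn down in activated T cells, was at 12.26, 11.11, 9.96 and 11.16, and its 2 probe sets gave -2.30 and -2.41. Klf2, which keeps T cells circulating through lymph nodes, was at 7.61, 9.65, 5.70 and 5.40 (-1.92) and was thus under background on both IL-2-added arrays, with and without STAT5. Cxcr5, the B cell follicle homing receptor, was at 9.06, 7.11, 7.82 and 8.64 (-1.24). Il7r and Cxcr5 were lowest on an array other than the STAT5-deficient one, Klf2 on that array. Bcl6 (7.56 and 7.31), Il6st (9.19 and 9.11) and Il6ra (7.99 and 8.63), which encode the follicular helper regulator and both chains of the IL-6 receptor, were within 2-fold.

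Il17a was nearly as high with IL-2 added as with IL-2 neutralised. It stood at 14.12 and 13.85 in the controls, a difference of -0.27, while the STAT3-deficient array was at 9.23 and the STAT5-deficient array at 14.44. Il21, a cytokine that feeds back on STAT3, was at 11.30 and 11.47 (0.17), although a weaker probe set gave -0.89. Of 12 measured Th17 genes, 1 was higher and 2 lower, with a median of -0.28 that stayed below 0 under every scaling, from -0.08 to -0.50. The lower count was 4 after intensity-dependent centring or quantile normalization, 1 after median centring and 0 when probe sets were averaged. The transcription factors Ahr, Maf, Batf, Irf4 and Hif1a lay between -0.29 and 0.25.

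The Th17 genes that passed 2-fold were a cytokine, a receptor and a nuclear receptor. Csf2, which encodes GM-CSF, was at 6.29, 10.45, 8.36 and 5.84, so 2.07 higher with IL-2 added, and highest in the STAT3-deficient cells. Il1r1, which lets Th17 cells respond to IL-1, was at 10.06, 5.99, 8.62 and 10.37 (-1.44, within 2-fold when its probe sets were averaged), and Rora, a Th17 nuclear receptor, at 12.54, 10.69, 11.41 and 12.13. Rora differed by -1.13, with its 8 probe sets from -1.61 to -0.30, and was within 2-fold when they were averaged or the arrays centred on their medians. The homing receptor Ccr6 (-0.94) and its ligand Ccl20 (-0.86) were within 2-fold as deposited and past it after intensity-dependent centring (-1.20 and -1.12), and Socs3, the inhibitor induced by IL-6, was at 12.02 and 11.62 (-0.40). Of 14 measured genes induced by IL-6 through STAT3, 1 passed 2-fold, Cebpb, a leucine zipper factor, at 8.72, 9.56, 10.24 and 9.22 (1.52).

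Of 15 measured regulatory T cell genes, 5 were higher, Foxp3 among them, 1 was lower and the others were within 2-fold. In the positive direction there were 13 (9 after intensity-dependent centring), and the median was 0.30, falling to 0.085 after intensity-dependent centring and 0.10 after quantile normalization. Ikzf2, which encodes the Ikaros family factor Helios, was at 7.06, 10.80, 9.11 and 8.91 (2.05). Izumo1r, which encodes folate receptor family member FR4, was at 9.23, 10.28, 10.78 and 8.45 (1.54), and Gpr83, an orphan receptor of these cells, at 6.11, 6.58, 7.59 and 6.62 (1.48). Ebi3, a subunit of IL-27 and IL-35, was at 8.31, 10.29, 9.59 and 10.17 (1.28). The pattern over the 4 arrays was not shared: Foxp3, Izumo1r and Gpr83 were highest on the STAT5 wild-type array, whereas Ikzf2 and Ebi3 were highest in STAT3-deficient cells. The surface genes Ctla4 (0.30), Tnfrsf18 (0.18) and Tnfrsf4 (-0.76) were within 2-fold, and Itgae, an integrin of tissue-resident cells, was at 7.71 and 6.67 (-1.04), a difference that drops inside 2-fold under each of the 3 scalings tried.

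For 13 measured Th1 genes the median was 0.55, and 1 passed 2-fold, against 4 after median centring and 3 after intensity-dependent centring or quantile normalization. This gene was Il18r1, an IL-18 receptor chain, at 7.38, 10.92, 8.72 and 8.90 (1.34). Ifng (3.84 and 4.84) and Tbx21 (5.25 and 6.13) were under background in both controls, and Gata3, the Th2 regulator, was at 6.69 and 6.30. Il10, an anti-inflammatory cytokine, was at 9.39, 4.47, 10.39 and 8.26, a difference of 0.997 that lies just short of 2-fold. On the follicular helper list, 1 of 13 was higher, Cd200, an inhibitory ligand (9.47 and 11.22), and Cxcr5, Pou2af1 (-1.14) and Slamf6 (-1.11) were lower, Slamf6 under none of the 3 scalings tried and Pou2af1 not after median centring, which gave 3 higher and 1 lower of the 13. The list of chemokines and their receptors had 0 higher and 3 lower of 17, and that of TGF-β response genes 1 and 2 of 15 (1 and 1 after median centring). Their largest decreases were Cxcr6, a receptor of tissue-homing T cells, at 11.72, 7.97, 9.28 and 11.07 (-2.45), and Tgfbi, a matrix protein induced by TGF-β, at 11.03, 5.47, 8.32 and 12.15 (-2.71).

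The group with the largest share of higher genes was amino acid supply. Of 16 measured genes of a list on amino acid transport and the amino acid response, 11 were higher and 0 lower (background 2.35% and 2.95%), all 16 differed in the positive direction, and the median was 1.39. This response is run by ATF4, a factor whose translation increases when amino acids run short or when growth signalling is strong, and which turns on transporters, synthetic enzymes and tRNA synthetases. Slc7a5, the large neutral amino acid transporter, was at 9.89, 10.79, 12.21 and 11.96 (2.32), and its partner Slc3a2 at 10.70, 10.94, 12.08 and 11.79 (1.38). Asns, asparagine synthetase, was at 9.78, 10.31, 11.90 and 11.64, and both of its probe sets gave 2.11 to 2.12. For these 3 genes the STAT5-deficient level lay closer to the STAT5 wild-type level than to either IL-2-neutralised level, which it did not for Il9 or Foxp3. For all 16 genes both IL-2-added arrays stood above both IL-2-neutralised arrays, an order that Il9 and Foxp3 share and that 39.7% of all genes show.

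The regulators and targets of the response followed with different sizes. Trib3, a pseudokinase that restrains ATF4, was at 7.55, 7.77, 9.51 and 9.01 (1.95), Chac1, a glutathione-degrading enzyme, at 6.55, 7.33, 8.79 and 9.22 (2.24), and Sesn2, a leucine sensor, at 7.37, 8.37, 9.23 and 8.82 (1.86). Atf3, another ATF family member, was at 6.52, 6.85, 9.38 and 7.19: it differed by 2.86 between the controls, and its level on the STAT5-deficient array was close to those with IL-2 neutralised. Atf4 mRNA itself was at 11.58 and 12.52 (0.94) and Ddit3, which encodes CHOP, at 8.89 and 9.76 (0.87), both short of 2-fold. The counts held under scaling, with 11 higher after intensity-dependent centring or quantile normalization and 14 after median centring.

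Related families, chosen after their values were seen and thus a description only, extended the group. The first list, too, was chosen with earlier results of these data known, so its counts are a description as well. Of 16 measured enzymes of serine, one-carbon and related amino acid metabolism, 10 were higher and 1 lower, and the median difference was 1.31. Phgdh, the first enzyme of serine synthesis, was at 11.23, 12.44, 13.05 and 13.17 (1.81), followed by Psat1 (1.30) and Psph (1.89), which complete the pathway. Shmt2 and Mthfd2, mitochondrial enzymes that pass the serine carbon to folate, differed by 1.40 and 1.37, Cth, which makes cysteine, by 2.83 (6.43, 8.30, 9.25 and 9.80) and Pck2, the mitochondrial phosphoenolpyruvate carboxykinase, by 2.07. The lower member was Aldh1l1, a cytosolic folate enzyme, at 8.17, 5.82, 6.92 and 6.63 (-1.25), while its mitochondrial relative Aldh1l2 was at 5.14, 6.10, 7.59 and 6.45 (2.45). 1 of the probe sets of Shmt2 went the other way, at -0.59.

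Cytosolic tRNA synthetases, the enzymes that load amino acids on tRNAs, were higher as a family by about 2-fold. Of 19 measured, 10 were higher and 0 lower, all 19 were positive with a median of 1.05, and for 18 both IL-2-added arrays stood above both others. Gars was at 11.36, 11.41, 12.67 and 12.51 (1.31), Iars at 10.36, 10.43, 11.64 and 11.60 (1.28) and Nars at 11.13, 11.23, 12.35 and 12.36 (1.22). The members called were Aars, Cars, Gars, Iars, Lars, Mars1, Nars, Sars, Tars and Vars, from 1.05 to 1.90, whereas Qars (0.05), Farsa (0.27), Kars (0.40) and Hars (0.42) were well inside 2-fold, and a second probe set of Cars gave -0.06. Most lie close to the limit: the count was 3 after intensity-dependent centring or quantile normalization, with medians of 0.80 and 0.78, and 18 of 19 still positive. The choice of probe set matters as well. With probe sets averaged, 8 of 19 were higher and 2 were negative. Without probe sets that may detect more than 1 transcript, 9 of 17 were higher and 3 negative, 1 of them past 2-fold. Of 14 measured amino acid transporters, 5 were higher, with Slc7a3, a cationic amino acid transporter, at 6.46, 7.37, 8.98 and 9.06 (2.52) and Slc6a9, a glycine transporter, at 7.33, 7.62, 9.43 and 9.06 (2.10), and 1 lower, Slc43a2 (-1.41). Over these 4 lists together, 30 of 56 genes were higher and 2 lower.

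**Figure D3:**
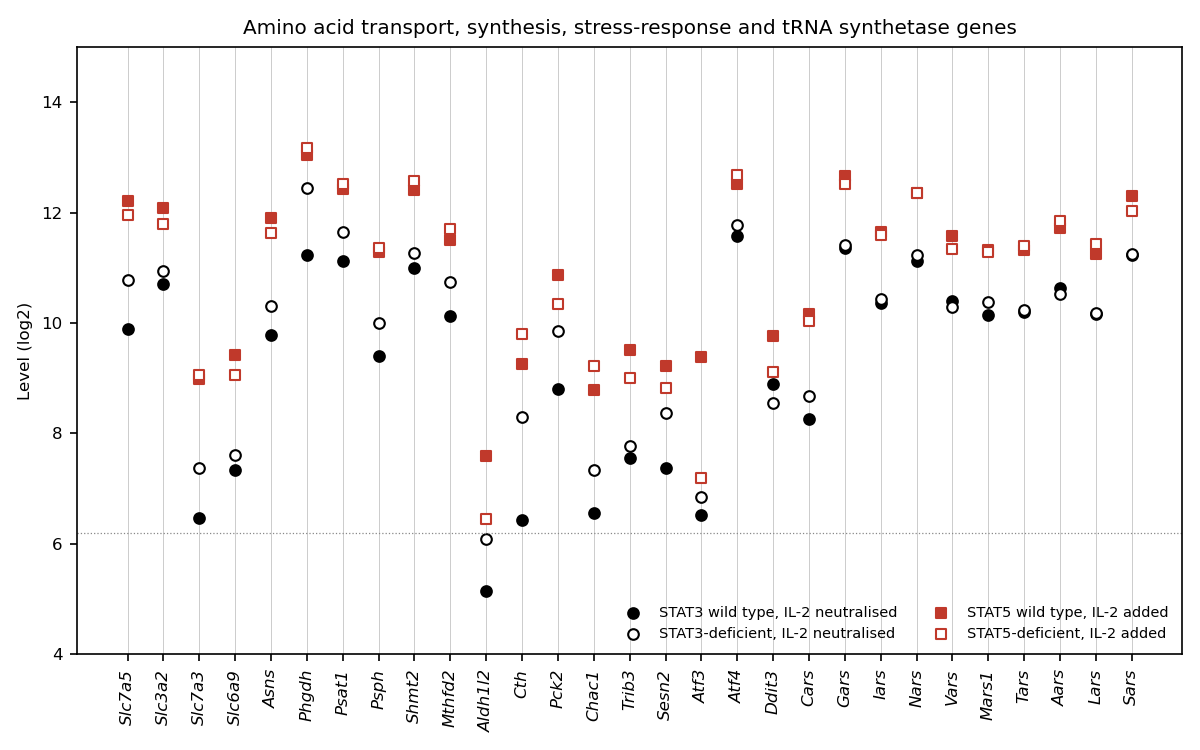
Levels (log2) of 29 amino acid and tRNA synthetase genes on the 4 arrays; circles are IL-2 neutralised, squares IL-2 added, filled symbols the controls and open symbols the deficient cells, and the dotted line is the background level of 6.20. Squares lie above circles for each gene drawn, and the open squares of Atf3 (7.19), Ddit3 (9.10) and Aldh1l2 (6.45) fall near the circles.

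Few growth and division genes passed 2-fold. Of 15 measured ribosome biogenesis genes, 2 were past 2-fold (Rrp12 1.12 and Nop58 1.01, both inside it after intensity-dependent centring or quantile normalization), all 15 were positive under every scaling, and the median was 0.63, or 0.39 after intensity-dependent centring. Of 23 S phase and mitosis genes, 1 passed 2-fold, Cdc20, an activator of the anaphase-promoting complex (11.03, 11.36, 12.07 and 12.33), which was inside 2-fold under the same scalings, and the median was 0.62, or 0.37 after intensity-dependent centring. All 23 were positive, against 55.3% of all genes, and 19 after intensity-dependent centring or quantile normalization. Of 19 measured genes of the G1 phase 0 passed 2-fold, with a median of 0.13 that turned to -0.08 after intensity-dependent centring. Within the S phase and mitosis list the replication helicase genes Mcm2 to Mcm7 lay between 0.19 and 0.29 and the mitotic genes Aurka (0.88), Kif11 (0.86), Cenpe (0.85) and Bub1 (0.82) at the upper end. Of 19 sterol and fatty acid synthesis genes 18 were positive (14 after intensity-dependent centring), but only Scd1, a fatty acid desaturase, passed 2-fold, at 10.25, 12.25, 12.26 and 11.26 (2.01). By contrast, 0 of 17 glycolysis and hypoxia genes were higher, and the glucose transporter Slc2a3 (-1.10) and lactate exporter Slc16a3 (-1.04) were lower, both inside 2-fold after median centring.

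**Figure D4:**
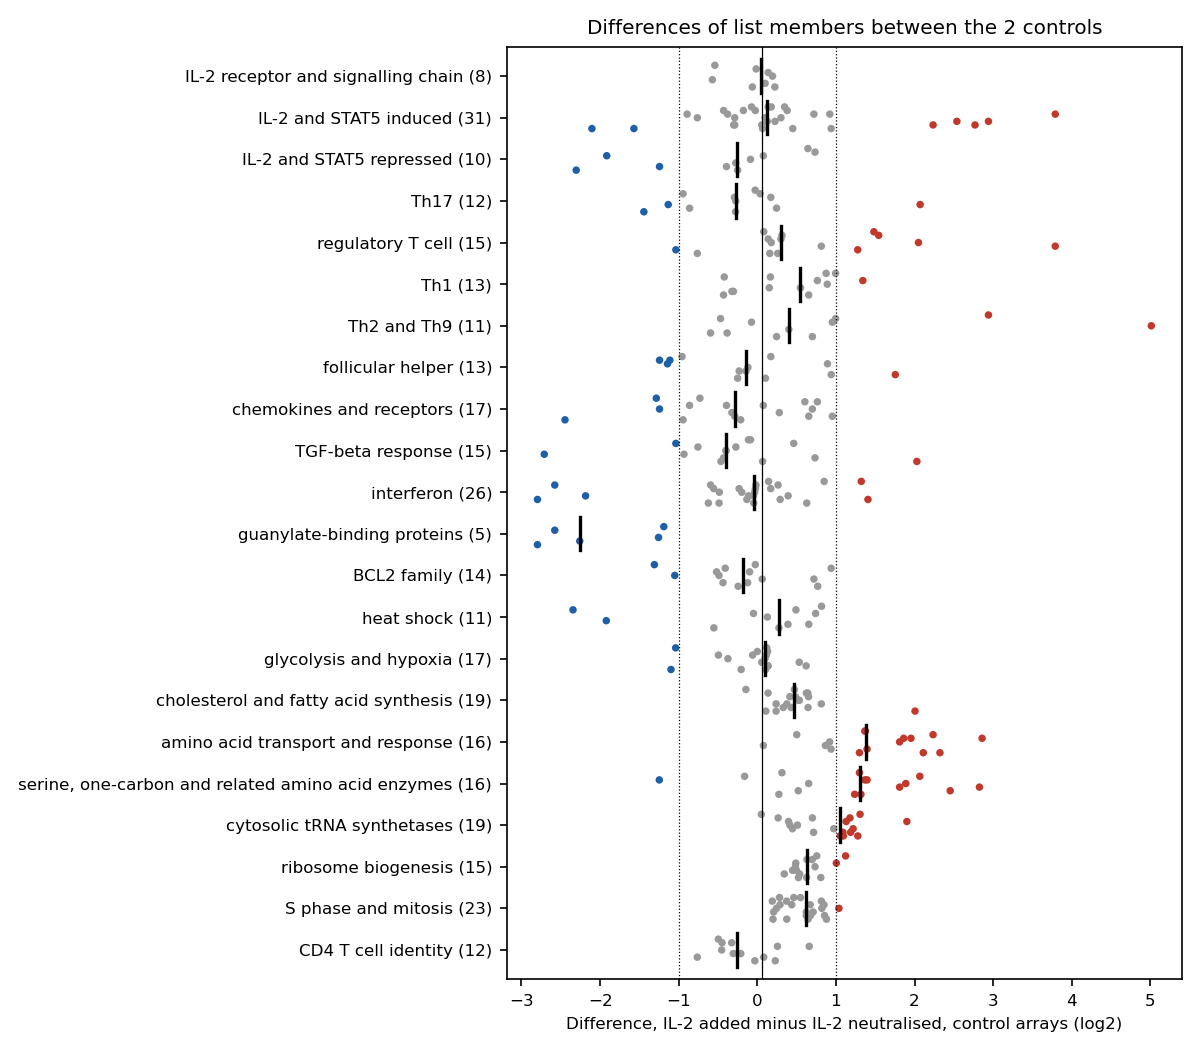
Differences between the controls (log2, IL-2 added minus neutralised) of the members of 22 gene lists, 1 point a gene, with the number measured in parentheses; red and blue points are past 2-fold, thick bars are list medians, the thin line is the median of all genes (0.06). Amino acid, serine and tRNA synthetase lists have medians of 1.05 to 1.39, guanylate-binding proteins -2.26, the Th17 list -0.28, and the IL-2 receptor list lies near the thin line.

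Among single genes, the largest increases beyond those above were mostly from background. Cd36, a fatty acid and lipoprotein receptor, was at 3.54, 4.47, 7.32 and 4.31, C1s1, a complement protease, at 4.15, 4.15, 7.44 and 4.26, and F3, which encodes tissue factor, at 3.54, 3.62, 6.57 and 3.26. These 3 genes were above background on the STAT5 wild-type array alone. Acsl6, an acyl-CoA synthetase, was at 4.05, 8.76, 7.29 and 5.06, and Slc35d3, an orphan nucleotide-sugar transporter, at 4.05, 6.50, 6.98 and 4.98, so both were also present in STAT3-deficient cells. Batf3, an AP-1 factor, was at 8.52, 7.65, 11.08 and 8.38 (2.57) and Enah, an actin regulator, at 6.63, 5.19, 9.29 and 6.05 (2.66); like Il9, both were highest with intact STAT5. By the same measure, 53 of the 292 higher genes stood at least 2-fold above all 3 other arrays.

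The largest decreases included a proton pump subunit, a growth factor and signalling genes that were high with IL-2 neutralised. Atp6v0d2, a V0 subunit of the vacuolar proton pump, was at 9.59, 4.36, 5.86 and 7.17 (-3.73), and Atp6v0e2, another V0 subunit, at 8.89, 7.59, 5.29 and 5.14 (-3.60); the other 6 measured V0 subunits lay between -0.54 and 0.30. Csf1, which encodes macrophage colony-stimulating factor, was at 10.29, 6.86, 6.94 and 8.29 (-3.35), with 4 probe sets from -3.65 to -1.60. Rasgrp3, a Ras activator, was at 9.25, 8.65, 5.67 and 7.01 (-3.58), and Slfn1, a Schlafen family gene, at 9.80, 10.56, 6.75 and 7.99 (-3.05). Gdpd3, a phosphodiesterase gene (-3.32), Prss12 (-3.20), Capn3 (-2.93), Sema4f (-2.81) and Rin2 (-2.71) were further large decreases among genes whose probe sets agreed in sign; Bcar3 was at -3.11, but its second probe set gave 0.34. The order over the arrays again varied: Rasgrp3, Slfn1 and Capn3 were low on both IL-2-added arrays, whereas Atp6v0d2, Csf1 and Sema4f were low in STAT3-deficient cells as well. Of the 367 lower genes, 35 stood at least 2-fold below all 3 other arrays. Only genes among the 367 can do so, which makes 35 the count over all 12439 genes as well. Here too the gap to 1 of the 3 arrays was met in advance.

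Guanylate-binding proteins, interferon-induced GTPases of cell-autonomous defence, were lower with IL-2 added. All 5 measured family members, a family chosen after its values were seen, were lower: Gbp2 at 12.65, 10.86, 9.85 and 10.76 (-2.80), Gbp3 at 8.22, 7.87, 5.64 and 7.13 (-2.58), Gbp6 at 6.86, 9.20, 4.60 and 6.91 (-2.26), Gbp8 (-1.26) and Gbp7 (-1.19). Gbp2 alone had both control levels above background, and 3 of the 5 stayed past 2-fold after intensity-dependent centring. Of 26 measured interferon genes 2 were higher, Iigp1, another GTPase (1.41), and Irf8, a transcription factor (1.32), and 3 were lower, Gbp2, Gbp3 and Xaf1, an interferon-induced gene with a role in cell death (-2.18, with a second probe set at 0.77); the median was -0.05. For 11 of the 26 (42.3%) both IL-2-added arrays stood below both others in the values as deposited, an order seen in 11.0% of all genes. Some met it by a small gap between the controls, such as Irf7 (-0.05) and Usp18 (-0.02). The direction of the list depends on scaling. As deposited 9 of the 26 were positive, against 16 with a median of 0.14 after median centring. After intensity-dependent centring or quantile normalization 13 were positive. Irf1, Irf7, Irf9, Oas2 and Usp18 lay between -0.59 and -0.02. The inducible heat shock genes Hspa1a (8.67, 6.94, 6.32 and 7.83) and Hspa1b (10.15, 8.08, 8.23 and 9.13) differed by -2.34 and -1.92, although the constitutive Hspa8 was at 0.13 and the chaperonin Hspd1 at 0.74. Bcl2l11, which encodes the death-inducing protein BIM, was at 9.22, 10.16, 7.91 and 7.38 (-1.31), with its 5 probe sets from -1.46 to -0.74.

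The same IL-2 contrast can be read in arrays that the control comparison did not use, STAT5-deficient with IL-2 added minus STAT3-deficient with IL-2 neutralised. This pair shares the 2 floxed lines and the IL-2 conditions but carries a different deletion on each side, so it is no replicate. In it 8.16% of all genes were 2-fold higher and 3.08% lower, and the median of all genes was 0.33. Of the 292 genes higher in the controls, 230 (78.8%) were also positive in the deficient pair, against 76.0% of all genes, and 100 (34.2%) passed 2-fold again while 28 passed it the other way. Of the 367 lower genes, 185 (50.4%) were negative there, against 24.0% of all genes, and 67 (18.3%) passed 2-fold again while 74 passed it the other way. All 16 amino acid response genes and all 19 tRNA synthetases were positive in the deficient pair, with medians of 0.86 and 0.93. Some other lists changed direction between the control pair and the deficient pair. The median went from -0.28 to 1.76 for Th17 genes and from 0.55 to -0.65 for Th1 genes. For the IL-2 and STAT5 repressed list it went from -0.26 to 0.42. Of 15 regulatory T cell genes, 2 were 2-fold higher and 8 lower in the deficient pair, against 5 and 1 in the controls. The cause of these changes was not tested. The higher cytokine genes were smaller there, Il9 at 1.72 and Il24 at 1.33, and Lta was at -0.95.

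**Figure D5:**
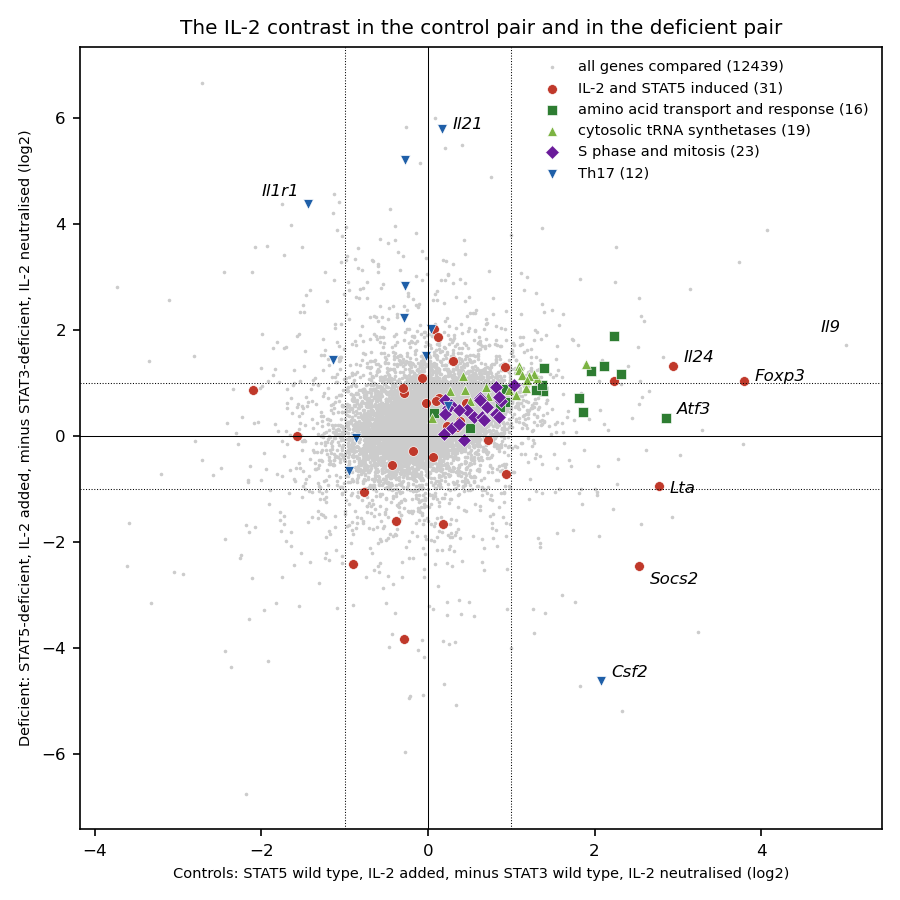
Difference with IL-2 added in the control pair (horizontal) and in the deficient pair (vertical) for 12439 genes (log2), with 5 gene lists in colour and dotted lines at 2-fold; the pairs share no array, and the vertical axis also holds both deletions. Amino acid response and tRNA synthetase genes are positive on both axes, Socs2 (2.54 and -2.44) and Csf2 (2.07 and -4.62) change sign, and Il17a and Il21 differ on the vertical axis only.

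Promoters were searched for the letters TTCNNNGAA, the palindromic site that STAT proteins are known to bind, because STAT5 is the factor that IL-2 activates. The window ran from 250 bases before to 50 bases after each RefSeq start site of GRCm38.p6, and 8.30% of 32851 promoters hold the motif. Among genes measured here with a promoter in the table, 33 of 227 higher genes (14.5%) and 16 of 281 lower genes (5.69%) hold it in at least 1 promoter, against 8.09% of genes within 2-fold. The sequences below are those of a known STAT5 target within 2-fold (Cish), 4 genes that were higher (Foxp3, Lta, Batf3, Irf8) and 1 that was lower (Il7r). Each has the motif in capitals and, except in Cish, ends at or before the start site.
Cish: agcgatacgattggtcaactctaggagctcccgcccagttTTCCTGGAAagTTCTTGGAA
Foxp3: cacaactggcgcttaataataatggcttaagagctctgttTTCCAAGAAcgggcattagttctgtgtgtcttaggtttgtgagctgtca
Lta: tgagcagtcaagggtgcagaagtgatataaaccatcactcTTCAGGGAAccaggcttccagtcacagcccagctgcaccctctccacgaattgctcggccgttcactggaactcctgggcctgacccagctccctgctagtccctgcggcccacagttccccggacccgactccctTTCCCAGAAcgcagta
Batf3: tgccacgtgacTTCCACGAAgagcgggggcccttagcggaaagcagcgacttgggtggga
Irf8: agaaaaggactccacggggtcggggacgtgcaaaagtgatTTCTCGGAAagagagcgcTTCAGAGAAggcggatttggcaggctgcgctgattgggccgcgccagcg
Il7r: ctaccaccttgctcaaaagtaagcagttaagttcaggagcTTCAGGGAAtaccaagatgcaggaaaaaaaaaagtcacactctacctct
They lie at chr9:107296619-107296678, plus strand (Cish), chrX:7580304-7580392, plus strand (Foxp3), chr17:35205352-35205543, minus strand (Lta), chr1:191098164-191098223, plus strand (Batf3), chr8:120736147-120736253, plus strand (Irf8) and chr15:9529970-9530058, minus strand (Il7r). Cish, which holds 2 motifs starting at positions 1 and 12 of its transcript, differed by 0.35, and Lta, with motifs starting at -152 and -16 relative to the start site, by 2.77. Foxp3 (motif at -139) and Il7r (motif at -142) differed by 3.79 and -2.30. Irf8, with motifs at -171 and -153, was at 10.17, 12.34, 11.49 and 10.43.

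For the amino acid genes the letters searched, on both strands, were TGATGNAA, the response element that ATF4 dimers are known to bind; this motif was chosen after the genes had been seen. It is held by 3.97% of the 32851 promoters. Counted by gene, with the motif in at least 1 promoter, the share is 4.51% of all 27025 genes with a promoter. It is 18 of 227 higher genes (7.93%), 9 of 281 lower genes (3.20%) and 2.51% of genes within 2-fold. The 18 include Asns, Atf3, Chac1, Trib3, Aars, Gars, Iars and Tars, genes of the lists that led to the motif. Part of the share among higher genes is therefore built in. Of the amino acid transport and response genes 4 of 14 hold the motif, and of the tRNA synthetases 5 of 12. The following show it in capitals, on either strand, for the asparagine synthetase, 3 regulators or targets of the response and a tRNA synthetase.
Asns: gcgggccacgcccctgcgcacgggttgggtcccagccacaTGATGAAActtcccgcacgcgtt
Atf3: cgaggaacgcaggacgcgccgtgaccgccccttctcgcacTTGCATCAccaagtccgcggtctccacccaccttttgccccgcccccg
Chac1: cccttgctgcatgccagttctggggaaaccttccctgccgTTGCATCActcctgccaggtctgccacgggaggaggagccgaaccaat
Trib3: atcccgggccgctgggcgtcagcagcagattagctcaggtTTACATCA
Gars: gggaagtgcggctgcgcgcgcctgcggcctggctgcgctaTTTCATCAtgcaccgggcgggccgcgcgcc
They lie at chr6:7693210-7693272, minus strand (Asns), chr1:191183396-191183483, minus strand (Atf3), chr2:119351009-119351096, plus strand (Chac1), chr2:152344039-152344086, minus strand (Trib3) and chr6:55037931-55038000, plus strand (Gars). The motif starts at -23 relative to the start site in Asns, at -110 in Atf3, at -193 in Chac1, at -30 in Gars, and at position 15 of the Trib3 transcript. The differences of these 5 genes were 2.11, 2.86, 2.24, 1.31 and 1.95 for Asns, Atf3, Chac1, Gars and Trib3. A match of letters is a description of the promoter and not a measured binding site.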

How the data were processed

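Total RNA from 4 cultures was hybridised to Affymetrix Mouse Genome arrays, 1 for each. The submitters' processing notes name Affymetrix Power Tools; the sources used here do not give its version, the algorithm, background correction or centring. The values deposited by the authors run from 2.48 to 15.09 and were taken as log2; another base would change every fold. A gene's value is its probe set with the highest mean over the 4 arrays, among 34945 non-control probe sets (of 45101) that name 1 gene in the platform annotation; 932 name several and were left out. Genes were kept above 6.20 on any array, without detection calls, so a gene high on 1 side only could pass. Differences of 2-fold or more are counted, with no test. Where a called gene had several probe sets, they agreed in sign for 100 of 118 higher and 107 of 115 lower genes, and the median SD between probe sets was 0.21 over 5555 genes.

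Members and gene lists were chosen with earlier results of these data known. Genes named by rule were 20 fixed ones, the 12 largest differences each way with agreeing probe sets, and up to 5 members of each list past 2-fold; all others were chosen after their values were seen. List members without such a probe set were not analysed here. Alternatives were the mean of probe sets, leaving out probe sets with _s, _x or _a suffixes, which may detect more than 1 transcript, no filter, a filter at percentile 75 (8.29), median centring, lowess centring (span 0.4), quantile normalization, and limits of 1.5-fold and 3-fold. Promoter sequences are those of RefSeq (GRCm38.p6). Python 3.11.15, pandas 2.3.3 and statsmodels 0.14.6 were used, and the steps were tested on simulated data. The genotype label of both deficient samples names Cre but also calls the cells wild type; their titles call them deficient and were used.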

Additional observations from a re-analysis of the deposited data

Results flagged for a closer look

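Of the 74 named genes past 2-fold between the controls, 23 differed by at least 2-fold in the opposite direction between the deficient arrays (STAT5-deficient with IL-2 added minus STAT3-deficient with IL-2 neutralised). Over all called genes, 28 of the 292 higher and 74 of the 367 lower ones did so, a smaller share. The named genes were picked by list and by size of difference and do not stand for all called genes. The difference between the pairs was not tested, since each side is 1 array, and the deficient pair also holds both deletions. Higher in the controls and lower in the deficient pair, with the 2 differences in that order, were Acsl6 (3.25 and -3.70), Csf2 (2.07 and -4.62), Dusp5 (1.34 and -2.08), Id1 (2.03 and -1.05), Iigp1 (1.41 and -3.34), Ikzf2 (2.05 and -1.89), Il18r1 (1.34 and -2.02), Irf8 (1.32 and -1.91), Izumo1r (1.54 and -1.83), Klrk1 (1.83 and -1.002), Slc35d3 (2.93 and -1.52) and Socs2 (2.54 and -2.44). Lower in the controls and higher in the deficient pair were Atp6v0d2 (-3.73 and 2.81), Csf1 (-3.35 and 1.42), Cxcr5 (-1.24 and 1.52), Cxcr6 (-2.45 and 3.10), Hspa1b (-1.92 and 1.05), Il1r1 (-1.44 and 4.39), Pmaip1 (-1.05 and 1.43), Pou2af1 (-1.14 and 4.21), Rora (-1.13 and 1.44), Sema4f (-2.81 and 1.52) and Tgfbi (-2.71 and 6.68). The widest gaps were those of Tgfbi, Csf2 and Acsl6 among these genes.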

How the results depend on the processing

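With 292 genes higher and 367 lower in the values as deposited, array median centring gave 593 and 228, a 1.5-fold limit 1344 and 1240, and a 3-fold limit 82 and 95. Without a filter 631 genes were lower, and with the filter at percentile 75, 151 were; their higher counts (357 and 205) and both counts under the other alternatives stayed within 1.5 times. The IL-2 and STAT5 induced list had 3 higher members without probe sets that can match several transcripts (5 otherwise, over fewer genes), 1 lower member with the percentile 75 filter and 4 lower after lowess centring or quantile normalization, where its median went from 0.13 to -0.07 and -0.089. The repressed list had 3 lower and 0 higher members under each alternative of probe set choice, filter and scaling; the 1.5-fold and 3-fold limits were applied to all genes and not to the lists. Of the 74 named genes past 2-fold, 63 stayed past it after median centring, 68 after lowess centring and 69 after quantile normalization, and 62 of 72 measured with the mean of probe sets; 0 reversed. The cause of these changes was not tested. No paired analysis was possible because each group has 1 array.

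With 1 array a side there is no estimate of the spread between cultures, IL-2 and the floxed line cannot be told apart, and so few arrays limit the precision of each value. Signal over background is known only through the level of 6.20. Fold sizes with a side under it are uncertain, which covers 70 of the higher and 191 of the lower genes.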

Other observations

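Some genes differed by nearly the same amount in the control pair and the deficient pair, which share the floxed lines and the IL-2 conditions but no array. Zfp979, a zinc finger gene, was at 2.90 and 2.99 on the arrays of the stat3 fl/fl line (wild type and deficient) and at 6.98 and 6.88 on those of the stat5 fl/fl line. Gdpd3, a phosphodiesterase gene, was at 9.99 and 9.79 against 6.67 and 6.65, and Fam199x at 5.46 and 5.41 against 8.02 and 7.68. Trav9d-3, a T cell receptor α variable segment, was at 12.43 and 12.41 against 14.96 and 15.02, although its 5 probe sets gave differences from -0.95 to 2.53. Igkv8-30, an immunoglobulin segment, was at 6.69 and 5.15 against 10.42 and 8.44. By less equal amounts, Mid1 and Erdr1 were lower in the stat5 fl/fl line, by -2.15 and -2.36 between the controls and by -3.46 and -4.36 between the deficient arrays. For each of these, the floxed line and the IL-2 condition cannot be told apart.

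Of 4 genes known to vary between mouse strains or substrains, 3 were measured and all 3 were lower on the STAT5 wild-type array: Mndal at 6.21, 11.46, 3.77 and 7.40 (order as in the report), Nnt at 9.92, 9.67, 8.74 and 9.22, and Wdfy1 at 9.15, 8.77, 8.12 and 9.33. The probe sets of Nnt disagreed (-1.33 to 0.57), and Nnt and Wdfy1 were within 2-fold after median centring. None of the 23 measured neighbours of the Stat5b, Stat5a and Stat3 locus passed 2-fold; the farthest was Dhx58 at -0.87.

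Among early T cell receptor response genes, 2 of 23 were higher, Dusp5, a MAP kinase phosphatase (8.05, 10.22, 9.39 and 8.14), and Egr2, a factor of activated and anergic T cells (7.73, 8.81, 9.04 and 9.03). Id1, an inhibitor of E proteins, was at 6.54, 7.82, 8.57 and 6.77, and Il1rn, which encodes the IL-1 receptor antagonist, at 6.36, 6.14, 8.96 and 8.31. Cd83, an activation marker, was at 6.60, 11.28, 9.16 and 9.62. In the cytotoxic list Klrk1, an activating receptor, was higher (4.05, 6.84, 5.88 and 5.84, under background in both controls), and the protease inhibitor Serpinb9 (-1.78) and Ctsw (-1.13) were lower, Serpinb9 not with the mean of its probe sets (-0.999) and Ctsw not after median centring (-0.94).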
